A study of Homo sapiens with 9 samples.

Results

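Accessible regions over exons of protein-coding genes, away from transcript starts, were examined in the human hepatocellular line HepG2. ATAC-seq marks open DNA by the sites that a transposase can cut and tag. The cells had been transfected with RNAiMAX and 50 nM siRNA 72 h earlier. The siRNA was the non-targeting control (NTG), siINO80#1 or siINO80#2, the last 2 both directed at INO80. INO80 is the ATPase of a complex that slides nucleosomes and exchanges histone variants. Each siRNA had 3 samples, and all 9 came from this 1 cell line, so the results hold for a line with an abnormal karyotype in transient knockdown. The deposited data held 1 peak list per siRNA for its 3 samples, so no value per replicate exists here, the spread between replicates is unknown, and no test was made. The amount of INO80 left in the cells was not analysed here.

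Peaks of the 3 lists that touched or overlapped on chromosomes 1 to 22 were merged into 109960 regions. A region was called exonic when its nearest edge lay more than 1 kb from every annotated transcript start (GENCODE 44 on GRCh37) and its midpoint lay in an exon of a protein-coding gene. This held for 2131 regions. They were compared with 35081 regions in introns and 34929 between genes, at the same distance from any start, and 22286 regions lay within 1 kb of a start. The remaining 15533 regions lay in non-coding genes or in exons of such genes. Shares are given with 95% Wilson intervals and differences between shares with 95% Newcombe intervals. Both cover counting error only and treat neighbouring regions as independent, which they are not. Read depth per list is unknown here.

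Most accessible DNA lies at promoters and at enhancers in introns or between genes. Exons can also hold regulatory elements, since a transcription factor reads DNA whether or not the same bases encode protein, and such coding elements have to satisfy the genetic code as well. Transcription through a gene body also moves nucleosomes, and last exons carry most of the untranslated sequence after the stop codon, with sites for microRNAs and RNA-binding proteins. AP-1, the dimer of JUN and FOS family proteins, binds the 7-base word TGAGTCA and is a known opener of distal chromatin. In these cells the liver program could be seen at start sites. Of 16 hepatocyte genes used as markers, 14 had a start-site region in all 3 lists, ALB and FGB being the exceptions, against 1 of 6 blood markers, 1 of 5 muscle markers, 0 of 5 neuron markers and 0 of 5 endothelial markers. The share over all protein-coding genes was 52.1%. A start-site region in at least 1 list was present for 66.7% of all protein-coding genes. This held for 15 hepatocyte, 3 blood, 1 muscle, 3 neuron and 0 endothelial markers.

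In coding exons with an AP-1 word within 100 bp of the summit, the word and the protein code share the same bases. Binding by AP-1 was not measured. The centres of the printed words lay from 15 bp (ANK2) to 84 bp (SLX4IP) from the summit. The lines give the reference sequence (GRCh37) in the direction of the gene, wholly within coding sequence, with the AP-1 word in capitals. The first 5 come from the strongest such regions in all 3 lists, SLX4IP is the one window of this kind shared by the siINO80 lists but missing from NTG, and DST and TNFRSF21 are the strongest such regions in NTG alone.
PHAX (chr5:125960409-125960495, plus strand): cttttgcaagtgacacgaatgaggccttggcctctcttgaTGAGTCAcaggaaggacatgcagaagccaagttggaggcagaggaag
AFF1 (chr4:88029340-88029426, plus strand): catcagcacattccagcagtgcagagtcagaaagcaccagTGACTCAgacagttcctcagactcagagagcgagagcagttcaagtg
TRAF3IP2 (chr6:111912782-111912868, minus strand): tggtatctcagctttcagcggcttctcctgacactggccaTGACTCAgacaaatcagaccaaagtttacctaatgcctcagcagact
SLC44A5 (chr1:75669424-75669510, minus strand): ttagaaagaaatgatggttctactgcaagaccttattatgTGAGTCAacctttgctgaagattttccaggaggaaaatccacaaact
ANK2 (chr4:114277012-114277098, plus strand): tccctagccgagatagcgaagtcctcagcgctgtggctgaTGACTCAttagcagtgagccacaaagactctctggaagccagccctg
SLX4IP (chr20:10603588-10603674, plus strand): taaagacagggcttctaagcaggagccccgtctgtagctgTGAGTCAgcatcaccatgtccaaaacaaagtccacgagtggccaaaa
DST (chr6:56417732-56417818, minus strand): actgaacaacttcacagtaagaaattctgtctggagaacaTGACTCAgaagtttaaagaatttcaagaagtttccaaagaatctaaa
TNFRSF21 (chr6:47253804-47253890, minus strand): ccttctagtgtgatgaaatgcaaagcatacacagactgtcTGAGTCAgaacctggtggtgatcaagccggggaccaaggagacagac

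The AP-1 word in PHAX, an adaptor for nuclear export of small RNAs, lay in its last exon, in a region with a fold enrichment of 6.15 in NTG, 6.95 in siINO80#1 and 5.49 in siINO80#2. Fold enrichment is the ratio of reads at the summit to the local background of the same list, and it ranks peaks within a list only. AFF1, a subunit of an elongation complex, had 6.63, 7.63 and 5.21 in the same order, and TRAF3IP2, an adaptor of interleukin-17 signaling, had 5.59, 5.43 and 5.56. SLX4IP had no NTG peak, 3.17 in siINO80#1 and 2.47 in siINO80#2. The cytoskeletal linker gene DST, in NTG alone, had 3.32. The first base of the word fell on codon position 3 in PHAX, AFF1, TRAF3IP2, ANK2 and SLX4IP, and on position 2 in SLC44A5, DST and TNFRSF21. It fell on position 1 in none of them. The word begins with TGA, which is a stop codon when read from codon position 1, and both strands of the word begin with these letters. Over the coding sequence of canonical transcripts there were 3405 such words, of which 0 started at position 1, 43.1% at position 2 and 56.9% at position 3. Of the 51 that lay within exonic regions, 18 started at position 2 and 33 at position 3.

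The 2131 exonic regions were first sorted by the part of the gene they covered. The midpoint lay in coding sequence in 732 regions, 34.4% (32.4 to 36.4), and in a last exon in 1302, 61.1% (59.0 to 63.1). The largest kind was non-coding sequence of a last exon with 1044 regions, 49.0%, followed by coding exons before the last with 474, 22.2%, non-coding exons before the last with 355, 16.7%, and the coding part of last exons with 258, 12.1%. An exon of a transcript annotated as protein_coding held 84.7% of the midpoints. The other 326 regions lay in exons known only from other transcript types, such as retained introns, and 39 midpoints lay in exons of more than 1 gene.

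Exonic regions were about as dense as their surroundings. With the bases within 1 kb of a start removed, there were 31.5 exonic regions per Mb of exon, 33.8 intronic regions per Mb of intron and 36.3 regions per Mb between genes. Coding sequence had 33.6 per Mb and last exons 32.3. Exons made up 2.73% of this distant genome and 2.43% of its regions. Exons before the last are short, so the regions there were rarely confined to coding sequence. Only 20.0% of the 474 regions in such coding exons lay wholly within the exon, 46.6% covered it from end to end, and the median exon was 178.5 bp long. In contrast, 89.5% of the non-coding last-exon regions lay wholly within their exon, whose median length was 3834.5 bp. The median width was 281 bp for exonic and 272 bp for intronic regions.

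Within long last exons the non-coding regions were counted by their position along the exon. Of the 817 non-coding regions in last exons of at least 2000 bp, 23.1% (20.4 to 26.1) lay in the third nearest the 5′ end of the exon, 37.9% (34.7 to 41.3) in the middle and 38.9% (35.6 to 42.3) in the third at the 3′ end. Regions in the coding part of last exons, which lies before the stop codon, were not counted here. The rule had also removed regions within 1 kb of any annotated start. Leaving out the coding part lowers the count toward the 5′ end of the exon by construction. The shares therefore do not show whether the spread was uneven. The size of the effect of these omissions on the 3 parts was not tested. Of all last-exon regions, 38.1% lay within 1000 bp of the end of the exon, and the median distance to it was 1409.5 bp.

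To ask how exonic regions differed between the siRNAs, regions were sorted into 7 classes according to which lists had called them. All 3 lists shared 458 exonic regions, 21.5% (19.8 to 23.3), where 26.7% of all 109960 regions were in this class. NTG alone held 638, 29.9% (28.0 to 31.9), against 24.5% of all regions. siINO80#1 alone held 446, 20.9% (19.3 to 22.7), against 21.6%, and siINO80#2 alone held 219, 10.3% (9.06 to 11.6), against 11.8%. NTG with siINO80#1 held 209, 9.81% (8.62 to 11.1), against 7.6%, and NTG with siINO80#2 held 64, 3.003% (2.36 to 3.82), against 2.62%. Both siINO80 lists without NTG held 97, 4.55% (3.75 to 5.52), against 5.18% of all regions. Start-site regions, of which 53.5% were in all 3 lists, set much of that background, so the introns were the closer comparison. The class sizes depended on the peaks admitted. The share in all 3 lists was 34.4% with only the stronger peaks (a −log10 q of at least 5) and 8.77% with only peaks that had a single summit, and the share in siINO80#2 alone was 3.98% and 14.1%.

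**Figure D1:**
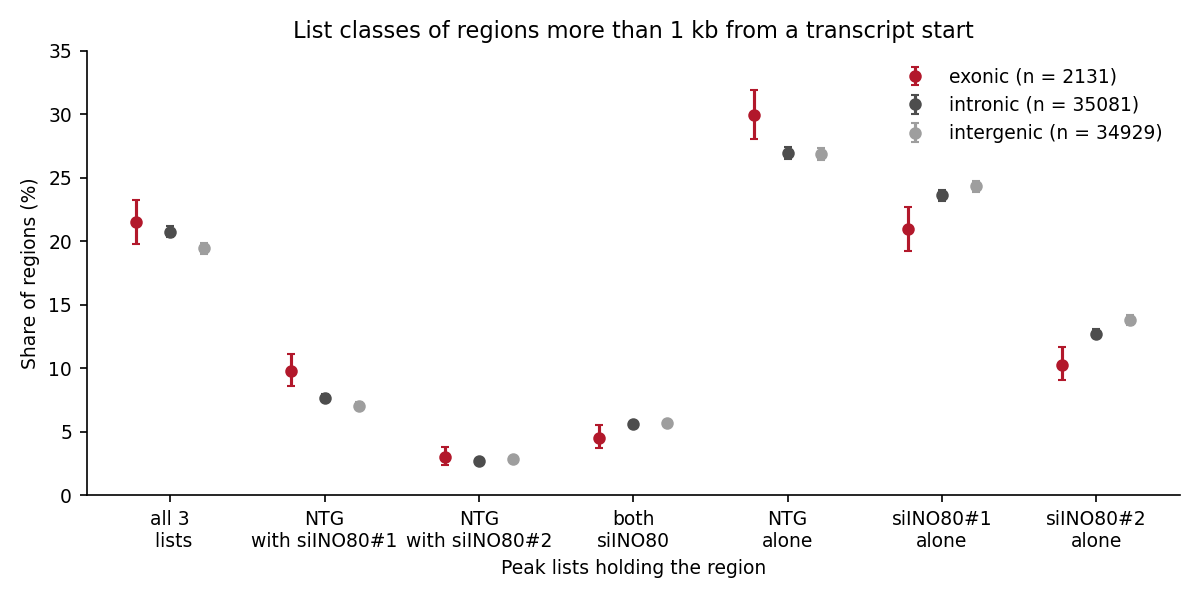
Share of regions (y axis, percent) in each class of peak lists (x axis) for exonic, intronic and intergenic regions more than 1 kb from a transcript start. Points are shares and bars 95% Wilson intervals. The exonic share was higher than the intronic one in NTG alone (29.9% against 26.9%) and lower in both classes held by a single siINO80 list.

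Beside intronic regions, exonic regions leaned toward the control list. NTG alone was 3.02 percentage points (1.06 to 5.05) more frequent among exonic regions, and NTG with siINO80#1 was 2.14 points (0.912 to 3.50) more frequent. The share of regions in siINO80#1 alone fell by 2.70 points (interval -4.43 to -0.866) relative to introns, that of siINO80#2 alone fell by 2.45 points (-3.72 to -1.05), and that of both siINO80 lists fell by 1.03 points (-1.88 to -0.0345). For all 3 lists the difference was 0.743 points, with an interval from -1.002 to 2.59. The interval of both siINO80 lists included 0 in several other settings, as did that of siINO80#1 alone, whereas those of NTG alone and siINO80#2 alone excluded 0 in each setting examined. These differences were small beside the share of single-list regions as a whole. Median GC content around the summit, 47% in exonic and 44.5% in intronic regions, differed as well. Within bands of GC content the NTG-alone share was 36.0% of exonic against 31.2% of intronic regions below 40% GC, 29.4% against 25.7% from 40 to 50% and 28.0% against 24.6% from 50 to 60%. Above 60% GC the order was the opposite, with 26.5% of 238 exonic regions and 28.4% of 1171 intronic regions.

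The same lean appeared when peaks of each list were counted before merging. These are the peaks that define the classes, so the count is not a separate observation. Exonic peaks numbered 1397 of 68784 in NTG, 1228 of 68344 in siINO80#1 and 864 of 52399 in siINO80#2, or 2.03% (1.93 to 2.14), 1.80% (1.70 to 1.90) and 1.65% (1.54 to 1.76). The NTG share was 0.234 points (0.0892 to 0.379) above siINO80#1 and 0.382 points (0.230 to 0.533) above siINO80#2. For every 100 intronic peaks there were 6.74 exonic peaks in NTG, 5.97 in siINO80#1 and 5.75 in siINO80#2. Last-exon peaks numbered 892, 749 and 515 in the same order and coding peaks 447, 413 and 271. With 1 list per siRNA it cannot be said whether these differences exceed the spread between samples. Exonic peaks were slightly weaker than intronic ones in each list, with median fold enrichments of 3.25 and 3.32 in NTG, 2.998 and 3.05 in siINO80#1, and 2.999 and 3.05 in siINO80#2.

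Coding and non-coding exonic regions differed in class. Regions found in a single siINO80 list were more often coding, with 178 of 446, 39.9% (35.5 to 44.5), in siINO80#1 alone and 89 of 219, 40.6% (34.3 to 47.3), in siINO80#2 alone. In NTG alone the coding share was 32.3% (28.8 to 36.0) and in all 3 lists 31.0% (26.9 to 35.4). Last exons showed the mirror image, with 64.3% of NTG-alone regions, 63.8% of regions in all 3 lists, 55.4% in siINO80#1 alone and 53.9% in siINO80#2 alone. Put the other way, siINO80#1 alone was 5.16 points (1.498 to 8.95) more frequent among coding than among non-coding exonic regions, and siINO80#2 alone 2.87 points (0.148 to 5.80) more. With a −log10 q of at least 5 the former was 1.497 points, with an interval from -3.71 to 7.32. The highest share was in coding exons before the last, with 26.4% of their 474 regions in siINO80#1 alone, against 18.6% of the 1044 non-coding last-exon regions.

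**Figure D2:**
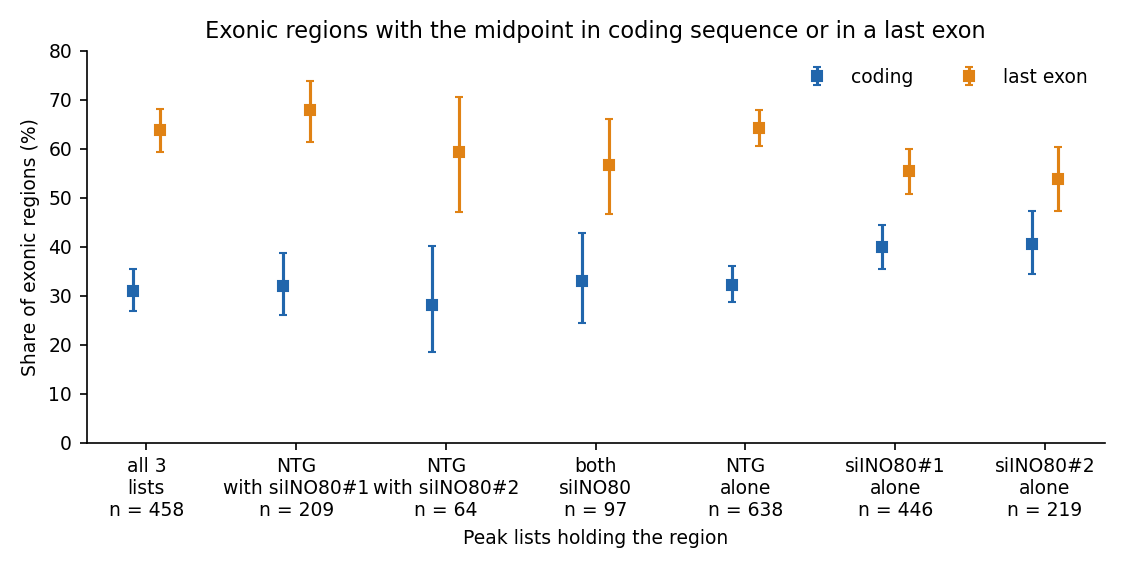
Share of exonic regions (y axis, percent) whose midpoint lay in coding sequence or in a last exon, for each class of peak lists (x axis, with the number of regions). Squares are shares and bars 95% Wilson intervals. The coding share was near 40% in the classes of a single siINO80 list and between 28.1% and 33.0% in the other classes.

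How often an exonic peak of one list was found in another depended first on its strength. All peaks of a list were ranked by fold enrichment and split into 4 bins of equal size, and any overlap of at least 1 bp was counted. The siINO80#1 list contained 49.6% (47.0 to 52.2) of the exonic NTG peaks and the siINO80#2 list 38.5% (36.0 to 41.1). In siINO80#1 these were 23.7% of the weakest bin and 93.8% of the strongest, and in siINO80#2 13.6% and 87.7%. Intronic NTG peaks were found as often within the intervals, the exonic share being 0.241 points higher (-2.46 to 2.95) in siINO80#1 and 2.23 points lower in siINO80#2 (interval of exonic minus intronic -4.83 to 0.437). For siINO80#2 the interval lay wholly below 0 in 5 of the 10 other settings, and the lowest difference was -4.47 points. For siINO80#1 it did so with a −log10 q of at least 5, at -4.75 points (-8.86 to -0.794).

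In the other direction exonic and intronic peaks differed. Of the exonic siINO80#1 peaks, 55.5% (52.7 to 58.2) overlapped an NTG peak, 5.80 points (2.93 to 8.65) more than of the intronic ones. For siINO80#2 it was 61.9% (58.6 to 65.1), 5.56 points (2.19 to 8.84) more. With only single-summit peaks these shares were 37.9% and 40.4%, and the difference for siINO80#2 was 2.85 points (-0.837 to 6.63). For siINO80#1 the interval included 0 with a −log10 q of at least 5, at 4.07 points (-0.121 to 7.999). The difference was largest in the weakest bin, where 35.5% of exonic and 24.3% of intronic siINO80#1 peaks were found in NTG, a difference of 11.2 points (6.17 to 16.6), and for siINO80#2 it was 42.6% against 29.8%, or 12.8 points (6.68 to 19.0). In bins 2 and 3 it was 6.48 points (1.38 to 11.9) and 6.15 points (0.682 to 11.2) for siINO80#1, and 5.92 points (-0.649 to 12.6) and 4.95 points (-1.20 to 10.2) for siINO80#2. In the strongest bin the differences were 0.290 points (-4.13 to 3.48) and -0.346 points (-5.40 to 2.77). In the weakest bin 40.9% of last-exon and 28.7% of coding siINO80#1 peaks were found in NTG, and 49.7% and 33.7% of those of siINO80#2, while start-site peaks had 47.8% and 64.4%. In the strongest bin last-exon and coding peaks had 89.3% and 92.5% for siINO80#1 and 92.5% and 93.0% for siINO80#2. An excess of exonic over intronic peaks was not limited to overlap with NTG. Exonic siINO80#2 peaks were also found in siINO80#1 more often, by 3.53 points (0.233 to 6.69), whereas siINO80#1 peaks found in siINO80#2 gave -0.637 points (-3.48 to 2.24).

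**Figure D3:**
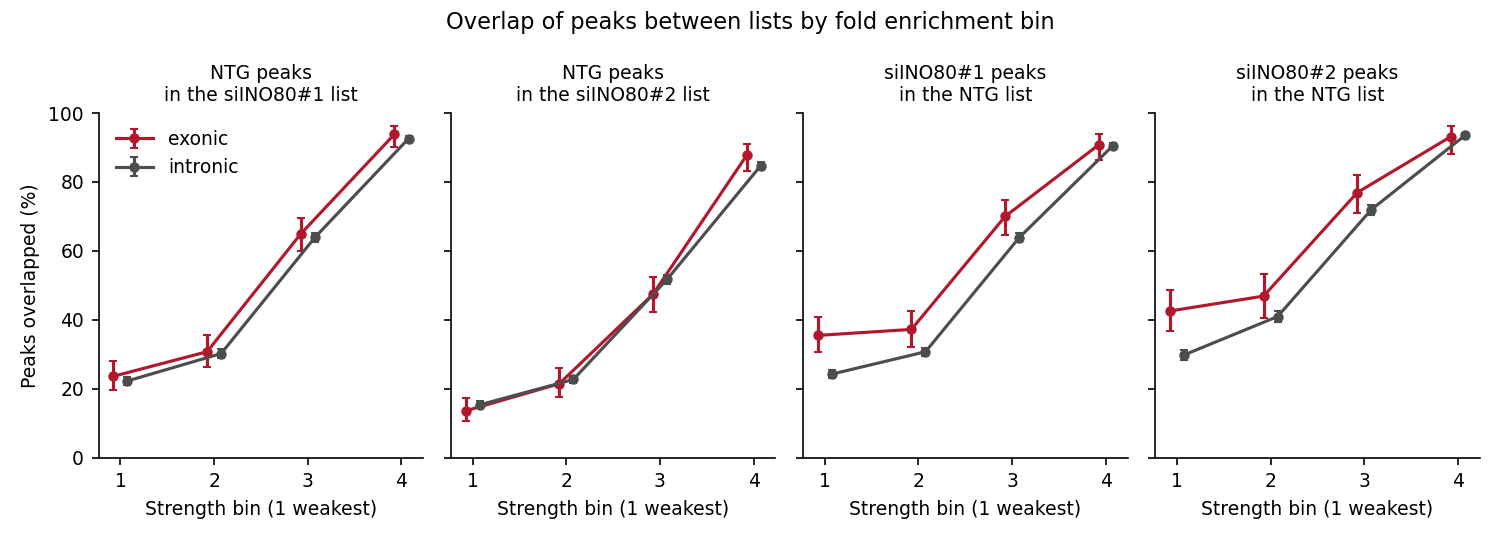
Share of peaks of 1 list that overlap a peak of another (y axis, percent) by bin of fold enrichment within the list (x axis, 1 weakest, 4 strongest) for exonic and intronic peaks. Points are shares and bars 95% Wilson intervals. The 2 kinds of peaks ran together for NTG peaks, and weak exonic siINO80 peaks were found in NTG more often than weak intronic ones (35.5% against 24.3% and 42.6% against 29.8%).

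The frequency of the AP-1 word differed between classes of exonic regions. Words were searched on both strands in the 200 bp around the strongest summit, and TGAGTCA was present in 246 of 2131 exonic regions, 11.5% (10.3 to 13.0), and in 13.6% (13.3 to 13.97) of intronic ones. It was found in 104 of 458 regions in all 3 lists, 22.7% (19.1 to 26.8), in 23 of 97 in both siINO80 lists, 23.7% (16.4 to 33.1), and in 34 of 638 in NTG alone, 5.33% (3.84 to 7.35). Both siINO80 lists exceeded NTG alone by 18.4 points (10.7 to 27.9). The classes differed in strength too, with a median percentile of 79.4 in all 3 lists, 59.3 in both siINO80 lists and 27.9 in NTG alone, and the part of strength in this difference was not tested. Exonic regions with a coding midpoint showed the same order, with 27 of 142 regions in all 3 lists, 7 of 32 in both siINO80 lists and 10 of 206 in NTG alone. The word itself could lie outside coding sequence in these regions. Leaving out chromosome 8, words in coding sequence of canonical transcripts within 100 bp of the summit numbered 16 in all 3 lists. There was 1 in both siINO80 lists and 5, in 4 genes, in NTG alone. Only regions with a coding midpoint were used for these word counts. With chromosome 8 included, the classes held 142, 32 and 206 such regions in the same order. Regions in both siINO80 lists held the word less often when exonic than when intronic, by 10.3 points (exonic minus intronic -10.3, interval -17.9 to -0.698), with 34.0% of the 1959 intronic regions. For NTG alone the exonic and intronic shares, 5.33% and 5.52%, did not differ beyond counting error.

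**Figure D4:**
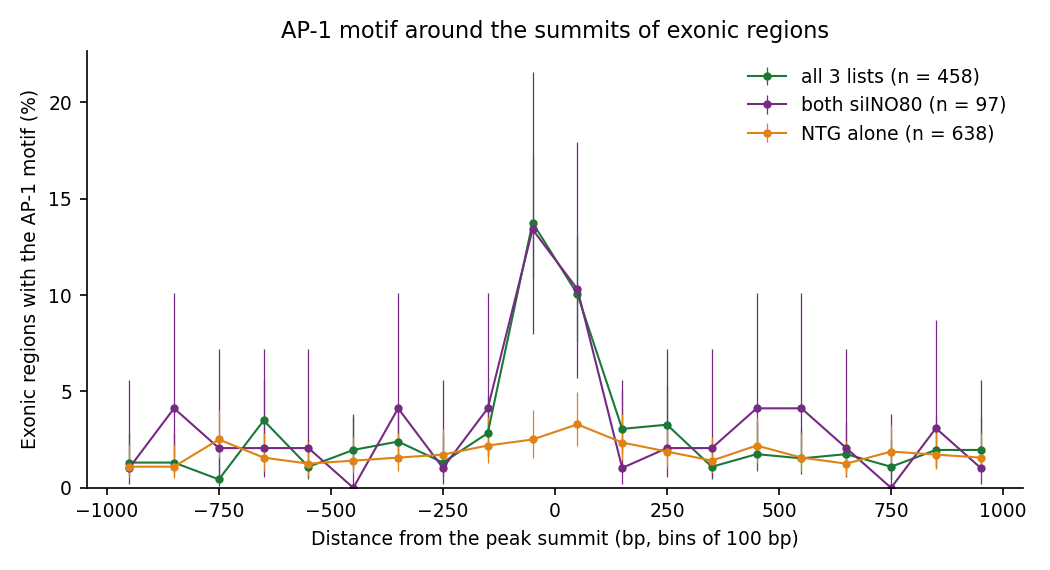
Share of exonic regions with the AP-1 word (y axis, percent) in bins of 100 bp by distance from the strongest summit (x axis) for 3 classes of peak lists. Points are shares and bars 95% Wilson intervals. The bins beside the summit reached 13.8% and 10.0% in all 3 lists and 13.4% and 10.3% in both siINO80 lists, against 2.51% and 3.29% in NTG alone.

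The word was centred on the summits. In all 3 lists the bins on both sides of the summit held it in 13.8% and 10.0% of regions and the next bins in 2.84% and 3.06%. In both siINO80 lists the same bins had 13.4% and 10.3%, then 4.12% and 1.03%, with only 97 regions. NTG alone had 2.51% and 3.29% at the summit, then 2.19% (1.31 to 3.65) and 2.35% (1.43 to 3.84) in the next bins. The value of 3.29% lay within the intervals of these next bins but above those of most bins farther out. Of the other words searched, the core of the CTCF motif was more frequent in exonic than in intronic regions. It was present in 54 of 2131, 2.53%, against 1.34%, a difference of 1.19 points (0.591 to 1.958). By class the difference was 1.43 points (0.484 to 2.93) in NTG alone and 0.489 points (-0.741 to 2.47) in all 3 lists. Median GC content around the summit was also higher in exonic regions, 47% against 44.5%, and its part in this difference was not tested. CTCF is the insulator protein that anchors chromatin loops. The forkhead word TGTTTAC of FOXA factors, pioneers of liver chromatin, was present in 4.18% of exonic and 5.66% of intronic regions, and in 2.82% of NTG-alone and 6.99% of shared exonic regions. CAAAGTCCA, a word bound by the liver factor HNF4A, was present in 0.892% and 0.869%. The palindrome TGACGTCA of CREB factors occurred in 2 exonic regions and the CEBP palindrome TTGCGCAA in 1.

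Among regions in all 3 lists, the 6 strongest were taken by their lowest percentile within the lists. They lay in MIPOL1 (chr14:38015666-38016675, coding part of the last exon), REXO1L1 (chr8:86572058-86572909, last exon), ACSS3, a mitochondrial acyl-CoA synthetase (chr12:81536588-81537296, coding exon 5 of 16), TPRG1 (chr3:189042200-189043241, last exon), PDE7A, a cAMP phosphodiesterase (chr8:66628991-66630055, last exon), and KLHL31 (chr6:53516307-53517265, coding part of the last exon). MIPOL1 had fold enrichments of 13.5 in NTG, 14.9 in siINO80#1 and 11.3 in siINO80#2. REXO1L1 had 12.2, 16.7 and 15.3, and ACSS3 had 13.9, 12.2 and 10.3. The lowest percentile among the 6 was 97.9, for KLHL31 in NTG. Of these, PDE7A held the AP-1 word. ACSS3 counted as coding by its midpoint, with 19.9% of the region in the exon, against 56.0% or more in each of the others.

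Regions shared by the siINO80 lists but missing from NTG were of medium strength. The 6 strongest lay in TLL1, a procollagen-processing protease (chr4:166935470-166935878, coding exon 8 of 21), MAML2, a Notch coactivator (chr11:95710710-95711073, last exon), HMGCLL1 (chr6:55377559-55378124, last exon), SETD7, a lysine methyltransferase (chr4:140520634-140521455, last exon), DIO2, the deiodinase that activates thyroid hormone (chr14:80682022-80682779), and ST6GALNAC5, a sialyltransferase (chr1:77509979-77510466, coding exon 3 of 5). TLL1 had 5.36 in siINO80#1 and 5.52 in siINO80#2, and MAML2 5.20 and 5.05. SETD7 had 4.57 and 5.28, and ST6GALNAC5 4.40 and 4.43. MAML2 and ST6GALNAC5 held the AP-1 word, and the other 4 did not. The exon held 30.6% of the TLL1 region, 23.2% of the DIO2 region and 65.6% of the ST6GALNAC5 region. The regions in MAML2, HMGCLL1 and SETD7 lay wholly within the exon.

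The strongest regions in NTG alone lay in DCBLD2 (chr3:98514778-98515439, last exon), ANK2, which encodes ankyrin-B (chr4:114199559-114199712, coding exon 17 of 46), CFAP299 (chr4:81283884-81284067, coding exon 2 of 6), CMC1 (chr3:28359061-28359216, an exon of a retained-intron transcript), BBS12 (chr4:123665570-123665928, last exon) and NTMT2 (chr1:170136667-170136930, coding part of the last exon), the last 2 with the same percentile. DCBLD2 had an NTG fold enrichment of 6.53, ANK2 5.81, CFAP299 5.58, CMC1 5.40 and BBS12 and NTMT2 5.19 each. None of the 6 held the AP-1 word. ANK2 had another region, in all 3 lists, whose AP-1 window is printed above.

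The exonic regions fell in 1706 of 19222 protein-coding genes, 8.88%. A single region was found in 1405 genes, 235 had 2 and 66 had 3 or more. The start of these genes was usually accessible, with a start-site region in 81.2%, compared with 66.7% of all protein-coding genes. The most regions were in TTN, the giant muscle protein titin (11), UNC80, a subunit of a sodium leak channel (9), APOB (7), PKHD1, which encodes fibrocystin (7), and DSE, NABP1, NOVA1 and SCFD1 (6 each). All 8 genes lie on chromosomes 2, 6 or 14. The ranking took no account of exon length or of the density of regions on a chromosome. TTN, with 119 kb of exon sequence, had 11 regions, 0 of them in all 3 lists, 7 in a single siINO80 list and 2 in NTG alone. Over all 2131 exonic regions these classes held 458, 665 and 638. PKHD1 had 3 in all 3 lists, the strongest over exon 36 of 67 (chr6:51824506-51824895) with 9.09 in NTG and 6.78 in siINO80#1. NABP1, a single-stranded DNA-binding protein, also had 3, in its last exon of 11064 bp.

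Chromosomes 2 and 6 had more exonic regions than their exons would give at the average rate. There were 420 on chromosome 2, 76.9 per Mb of exon, and 243 on chromosome 6, 64.0 per Mb, against 36.3 on chromosome 20, 34.5 on chromosome 14 and 8.27 on chromosome 19. Chromosome 2 held 21540 of all regions and chromosome 6 held 12525, and exonic regions were 1.95% and 1.94% of these. Without chromosomes 2, 6 and 14 there were 1389 exonic regions.

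Genes of secreted liver proteins were examined as a list of 24. Of these, 5 had an exonic region (AHSG, APOB, FGA, FN1 and SERPINA1), with 13 regions in all, none of them in all 3 lists and none in both siINO80 lists. NTG alone held 7, NTG with one siINO80 list held 4, and a single siINO80 list held 2. Over all 2131 exonic regions these classes held 638, 273 and 665, and all 3 lists held 458. The 5 genes were 20.8% of the list, against 8.88% of all protein-coding genes. Such a share was not particular to this list, with 18.75% of INO80 complex genes and 19.0% of collagens. Zinc finger genes had 4.97%. Peaks of each list were also placed before merging, so their counts differ from those of the merged regions. Counted in this way, the NTG list had 11 exonic peaks in the 24 genes and siINO80#1 had 9, of which 1 lay in ALB. The siINO80#2 list had 0 of its 864 exonic peaks there, with a Wilson interval from 0 to 0.443% (3 counts would be 0.347%). The NTG share was 0.787% (0.440 to 1.40), so the intervals of NTG and siINO80#2 overlapped. Over exons, introns and starts together the 24 genes held 72, 51 and 38 peaks, of which 32, 23 and 20 lay at start sites. The order of the lists was the same for the liver transcription factor genes (50, 35 and 30 peaks) and the INO80 complex genes (35, 31 and 22). The lists differ in size, with fewer peaks in siINO80#2, and the NTG and siINO80#1 lists are about equal.

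APOB, which encodes the structural protein of low-density lipoprotein and is strongly transcribed in liver cells, accounted for most of these. All 7 of its exonic regions were coding. They lay in exons 21, 23, 25, 26 and 27 of 29 on the minus strand of chromosome 2, 3 of them in the long exon 26 (chr2:21227952-21235523). The widest, chr2:21227789-21230014, spanned 2226 bp, with a fold enrichment of 3.23 in NTG and 2.30 in siINO80#1 and no siINO80#2 peak. Over exon 25 the values were 2.74 and 2.92, again without siINO80#2, and over the middle of exon 26 (chr2:21231398-21232104) NTG alone had 2.43. The highest percentile of any of the 7 was 44.03, so these were among the weaker peaks. The whole gene held 15 NTG peaks covering 10995 bp, 7 siINO80#1 peaks covering 3641 bp and 3 siINO80#2 peaks covering 1836 bp. The start-site region was called in all 3 lists.

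**Figure D5:**
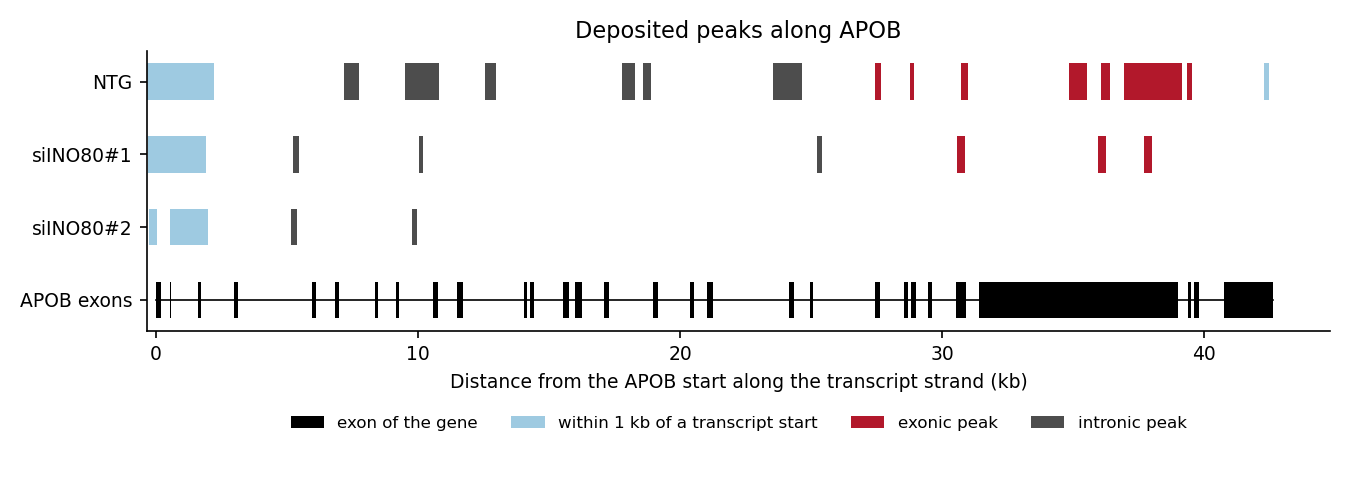
Deposited peaks along APOB for each siRNA, with the exons of its canonical transcript in the lowest row. The x axis is the distance from the transcript start in kb, and colours mark exonic and intronic peaks and peaks within 1 kb of a transcript start. NTG had 7 exonic peaks in the 3′ part of the gene, siINO80#1 had 3 and siINO80#2 had 0, whereas the start was covered with each siRNA.

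Other gene groups were examined in the same way. Among liver transcription factor genes, NR5A2, a nuclear receptor, had one exonic region in all 3 lists (2.84 in NTG, 2.57 in siINO80#1 and 2.56 in siINO80#2) and NR2F2 had one in NTG and siINO80#2 (3.13 and 2.47). Of 16 genes of the INO80 complex, 3 had an exonic region, 18.75%. INO80 itself had a region over exon 26 of 36 (chr15:41313181-41313337) in NTG alone with a fold enrichment of 4.36. NFRKB, another subunit, had one over exon 12 of 27 (chr11:129751634-129751789) in NTG alone with 3.75. INO80D had one in its last exon in all 3 lists (2.79, 3.15 and 2.63). Zinc finger genes with ZNF symbols had 30 regions in 25 of 503 genes, 4.97%. Of these regions 15 were in NTG alone, 22 in last exons and 11 coding. Ribosomal protein genes had 10 regions in 9 of 82 genes, 10.98%, with 6 in NTG alone, and collagens 12 regions in 8 of 42, 19.0%, with 3 in all 3 lists. HOX genes and clustered protocadherins had 1 region each (HOXD10 and PCDHGA1), of 39 and 53 genes. The background was 8.88% of protein-coding genes. Over all exonic regions 29.9% were in NTG alone, 21.5% in all 3 lists, 61.1% in last exons and 34.4% coding.

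Few summit sequences of exonic regions had near-identical copies in the reference genome. The placement of reads was not examined. The 200 bp around the summit occurred once in the genome in 2110 of 2131 regions, and 21, 0.985% (0.645 to 1.502), had further places with at least 95% identity over 90% of the length. Of these, 2 had more than 5 places, and the most places of any region was 361. The distance rule cut through a continuous range. Among regions with an exonic midpoint, 279 lay in the 500 bp short of the 1 kb limit and were left out, of which 17.2% were in all 3 lists and 28.0% in NTG alone. In the 500 bp beyond the limit there were 177, with 16.4% and 35.03%.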

How the data were processed

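Reads were handled by the authors. Their processing notes name hg19, Trim Galore 0.4.1, Bowtie2, SAMtools, MACS2 and deepTools 2.2.4, with no settings for ATAC-seq, so the handling of the transposase offset and of the 3 replicates of a group is not given in the sources used here. Per the labels each group shares 1 peak list. The fold enrichment deposited by the authors is a ratio of reads at the summit to local background, and their p-values and q-values were deposited as −log10 values. None is a signal comparable between lists, and depth is unknown. Columns mapped to no sample numbered 0.

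Intervals listed with more than 1 summit entered once, with the summit of highest fold enrichment. Intervals on chromosomes 1 to 22 were merged and placed with GENCODE 44 lifted to GRCh37, which holds 212760 distinct transcript starts there. No peak passed a chromosome end and 0 summits fell on unknown bases. Coding means a midpoint in a coding interval, and last exon the final exon of a protein_coding transcript. Words were searched on both strands in 200 bp. Named regions were the 6 strongest in all 3 lists, in both siINO80 lists and in NTG alone by within-list percentile of fold enrichment, the 8 genes with most regions, and the regions of the gene lists (the 6 strongest of each). One result of the liver transcription factor list is not reported here. Members and lists were chosen with earlier results of these data known. Printed windows were chosen by class and strength after the AP-1 shares had been seen.

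No test was made, because each siRNA had 1 list. The alternatives were a distance of 2.5 kb, distance from the midpoint, exons of protein_coding transcripts, at least 50% exonic bases, −log10 q of at least 5, merging within 500 bp, equal list sizes and an overlap of at least 50%. Leaving out chromosomes 2, 6 and 14, canonical exons only, and peaks with 1 summit only, were added after seeing the data. Placement and classes were tested on 5616 simulated regions, of which 100% were recovered. The tools were Python 3.11.15 with pandas 2.3.3, numpy 2.4.6, pysam 0.24.0, scipy 1.17.1 and matplotlib 3.10.9, and blastn 2.17.0.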

Additional observations from a re-analysis of the deposited data

Results flagged for a closer look

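With each siINO80 list set against NTG, 3 of 7 summary measures of exonic peaks moved in opposite directions. The coding share of exonic peaks was 1.63 percentage points higher in siINO80#1 and -0.631 points from NTG in siINO80#2. The median width of exonic peaks was -8 bp from NTG in siINO80#1 and 3.5 bp wider in siINO80#2. The median within-list percentile of fold enrichment was 0.539 higher in siINO80#1 and -0.653 from NTG in siINO80#2. These differences were not tested, since each siRNA had 1 list.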

How the results depend on the processing

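No paired analysis was possible because the replicate letters carry no values in the peak lists, 1 per siRNA, and leaving out a replicate could not be run for the same reason. Each of 26 values was computed again in 10 other settings, 260 in all, of which 207 stayed within the counting interval of the reported value (for the number of regions, within 1.5 times), 53 moved beyond it and 0 differences whose interval excluded 0 changed sign. A −log10 q of at least 5 left 779 exonic regions, of which 34.4% were in all 3 lists, 12.2% in NTG with siINO80#1, 6.68% in both siINO80 lists, 25.3% in NTG alone and 15.02% and 3.98% in siINO80#1 or siINO80#2 alone, and 31.2% were coding. With it, exonic minus intronic was 5.69 points for NTG alone and -2.52 for both siINO80 lists, coding minus non-coding was 1.497 for siINO80#1 alone, and the AP-1 share of both siINO80 lists exceeded NTG alone by 30.6 points. Exonic NTG peaks were then found in siINO80#1 for 62.9% (exonic minus intronic -4.75 points) and in siINO80#2 for 50.1%, and exonic siINO80#1 and siINO80#2 peaks in NTG for 68.6% and 76.3%. At equal list size the shares were 24.1% in all 3 lists, 7.62% in NTG with siINO80#1, 4.66% in NTG with siINO80#2, 6.05% in both siINO80 lists, 25.4% in NTG alone and 16.2% and 16.03% in siINO80#1 or siINO80#2 alone, with 47.4% of NTG peaks found in siINO80#2 and 58.8% and 56.6% of siINO80#1 and siINO80#2 peaks found in NTG. With at least 50% exonic bases 19.5% were in all 3 lists, 29.8% coding and 66.1% in last exons. The last-exon share was 64.1% beyond 2.5 kb, and exons of protein_coding or of canonical transcripts gave 72.1% and 70.5%, with 40.1% and 43.7% coding. Requiring 50% of the peak to overlap lowered the shares found to 40.4% and 30.1% for NTG peaks in siINO80#1 and siINO80#2, and to 47.3% and 55.0% for siINO80#1 and siINO80#2 peaks in NTG. Without chromosomes 2, 6 and 14 there were 1389 regions, 8.35% in siINO80#2 alone and 64.1% in last exons, and 66.3% of siINO80#2 peaks were found in NTG. Keeping only peaks with 1 summit (like the changes of chromosomes and to canonical exons, added with the data already seen) put 8.77% of exonic regions in all 3 lists, 4.68% in NTG with siINO80#2, 5.90% in both siINO80 lists, 33.2% in NTG alone and 23.9% and 14.1% in siINO80#1 or siINO80#2 alone, and 33.0% and 24.2% of NTG peaks were found in siINO80#1 and siINO80#2 and 37.9% and 40.4% of siINO80#1 and siINO80#2 peaks in NTG. Stricter thresholds, equal sizes and larger overlaps remove peaks or matches by construction. The other causes were not tested. Depth per list is unknown, so a peak missing from a list may lie just under its threshold.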
